A study of Mus musculus with 12 samples.

Results

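The smooth muscle contractile genes described here are 10 genes of mouse lung, Acta2, Actg2, Myh11, Tagln, Cnn1, Des, Mylk, Lmod1, Smtn and Itga8, found by their symbols among the 49585 genes of a table of RNA levels. They were chosen by name and function and not by their values, although results from the same libraries were already known. Poly-A RNA was sequenced from whole lung of Balb/cJ mice that were wild type (WT) or knocked out for Rgs4 (KO), a regulator that shortens signals from receptors coupled to Gq and Gi. Mice of each genotype were exposed to phosphate-buffered saline (PBS) or to the mould Aspergillus (Af), which the labels spell Aspergillus funigatus, in a study of the part Rgs4 plays in asthma. This gave 4 groups of 3 libraries: WT_PBS (libraries 15, 16 and 17), WT_Af (18, 19 and 20), KO_PBS (9, 10 and 11) and KO_Af (12, 13 and 14). The sources used here do not give the age or sex of the mice, how the knockout was made or in which cells it acts, or the dose, route and length of the exposure. Nothing in the labels says that libraries of a group came from separate mice, so each p-value rests on a spread among libraries that may be technical.

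Smooth muscle surrounds the airways and the blood vessels of the lung and sets their width. When calcium rises in the cell, calmodulin activates myosin light chain kinase, the product of Mylk, which phosphorylates the light chain of myosin so that smooth muscle myosin (heavy chain Myh11) pulls on filaments of smooth muscle actin (Acta2 and Actg2). Transgelin (Tagln), calponin (Cnn1), smoothelin (Smtn) and leiomodin (Lmod1) bind or build those actin filaments, desmin (Des) forms the intermediate filaments that link them, and integrin alpha 8 (Itga8) ties the cell to the matrix around it. Many of these genes are switched on by serum response factor (Srf) with its partner myocardin (Myocd) at a DNA element called the CArG box, and several are also active in myofibroblasts, pericytes, alveolar fibroblasts or other muscle.

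The element by which these genes are best known as a group is shown first. RefSeq windows of 250 bases before the annotated start site (GRCm38.p6) matched 7 of the 10 genes by symbol, all but Actg2, Myh11 and Tagln. A perfect CArG box, with no G or C among the 6 bases between its CC and its GG, was found in 0 of the 7 windows and in 1.48% of 32536 windows of all genes. A CArG-like match, allowing at most 1 G or C among those 6 bases and so including any perfect box, was found in 1 of the 7, Acta2, against 8.59% of all windows. Acta2 held it 2 times, as 0.661% of all windows did at least. The pattern is its own reverse complement, so each search covers both strands. The 2 matches are printed 5′ to 3′ on the minus strand with 10 bases to either side, the match in capitals. The first begins 84 and the second 34 bases before the RefSeq start site, and a longer transcript in the GENCODE M21 annotation reads through this stretch. A match is a description of letters and does not show that a factor binds there. Only the 250 bases before the RefSeq start site were searched. Elements further upstream, in introns or at other start sites would be missed.

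Acta2 chr19:34255438-34255467: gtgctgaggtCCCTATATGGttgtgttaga
Acta2 chr19:34255388-34255417: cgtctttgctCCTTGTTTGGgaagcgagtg

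The actins are alike enough that reads could be assigned to the wrong one, so Acta2 and Actg2 were compared in their coding sequences (GENCODE M21 transcripts). They were identical at 952 of 1128 aligned bases (84.4%) and differed at 176. Of the 1082 stretches of 50 bases in the Acta2 coding sequence, 0 occurred without a difference in Actg2, in the heart actin Actc1, the skeletal muscle actin Acta1 or the cytoplasmic actin Actb, and 7 (0.647%) occurred in the cytoplasmic actin Actg1. The most alike 120 bases of Acta2 and Actg2, coding bases 884 to 1003 of Acta2 and 881 to 1000 of Actg2, still differed at 14 places, which are the capitals below.

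Acta2: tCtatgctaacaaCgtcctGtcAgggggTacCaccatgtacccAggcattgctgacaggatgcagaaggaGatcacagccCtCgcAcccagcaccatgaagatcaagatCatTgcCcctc
Actg2: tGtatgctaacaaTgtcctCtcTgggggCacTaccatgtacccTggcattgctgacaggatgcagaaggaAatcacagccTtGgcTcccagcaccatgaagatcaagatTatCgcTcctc

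Each library held between 20708884 and 30229446 recovered reads, at which 3 reads, the limit that a count of 0 allows, correspond to 0.0983 to 0.144 CPM. The 10 genes were far above that, with 444 to 14259 reads per library. The targeted gene Rgs4 had 13 to 32 reads in the KO libraries and 472 to 1304 in the WT libraries. WT_PBS 17 and KO_Af 12 stood apart by RNA of squamous epithelium and skeletal muscle: Krt13, a keratin of squamous epithelium, was at 239.5 and 136.7 CPM there and at most 0.506 CPM elsewhere, and the skeletal muscle actin Acta1 at 170.1 and 213.1 CPM against 0.919 to 18.0 CPM elsewhere. Among the KO_Af libraries KO_Af 12 also had relatively more RNA of short transcripts and less of long ones, as described below. Results that rest on these libraries are given with and without them. Genotype and exposure both follow library number, so an effect of processing order cannot be told apart from either.

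In WT lung, contractile genes went in both directions with Af exposure, as all tested genes did. The actins Acta2 and Actg2, transgelin and desmin rose, by 1.34- to 1.93-fold, while smoothelin, the kinase gene Mylk and the integrin gene Itga8 fell, Itga8 to 0.287 of its PBS level. That is 4 of 10 higher and 3 of 10 lower, where 26.2% of all 16126 tested genes were called higher and 25.6% lower (limma, Benjamini-Hochberg adjusted p under 0.05). In KO lung the same 4 genes rose and 5 fell, the 3 above with Myh11 and Lmod1, against 28.7% and 29.2% of all genes. The median log2 difference of the 10 genes was -0.25 in WT and -0.18 in KO, and that of all tested genes was -0.02 in each. The Af and PBS libraries did not overlap for 8 of the 10 genes in WT and 9 in KO, where 65.4% and 62.9% of all genes did not. About as many of all genes rose as fell, and counts of 3 to 5 in 10 lie close enough to that background that no result is read from them; the values of each gene follow. In whole lung, fewer cells of a type and less RNA per cell cannot be told apart.

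**Figure D1:**
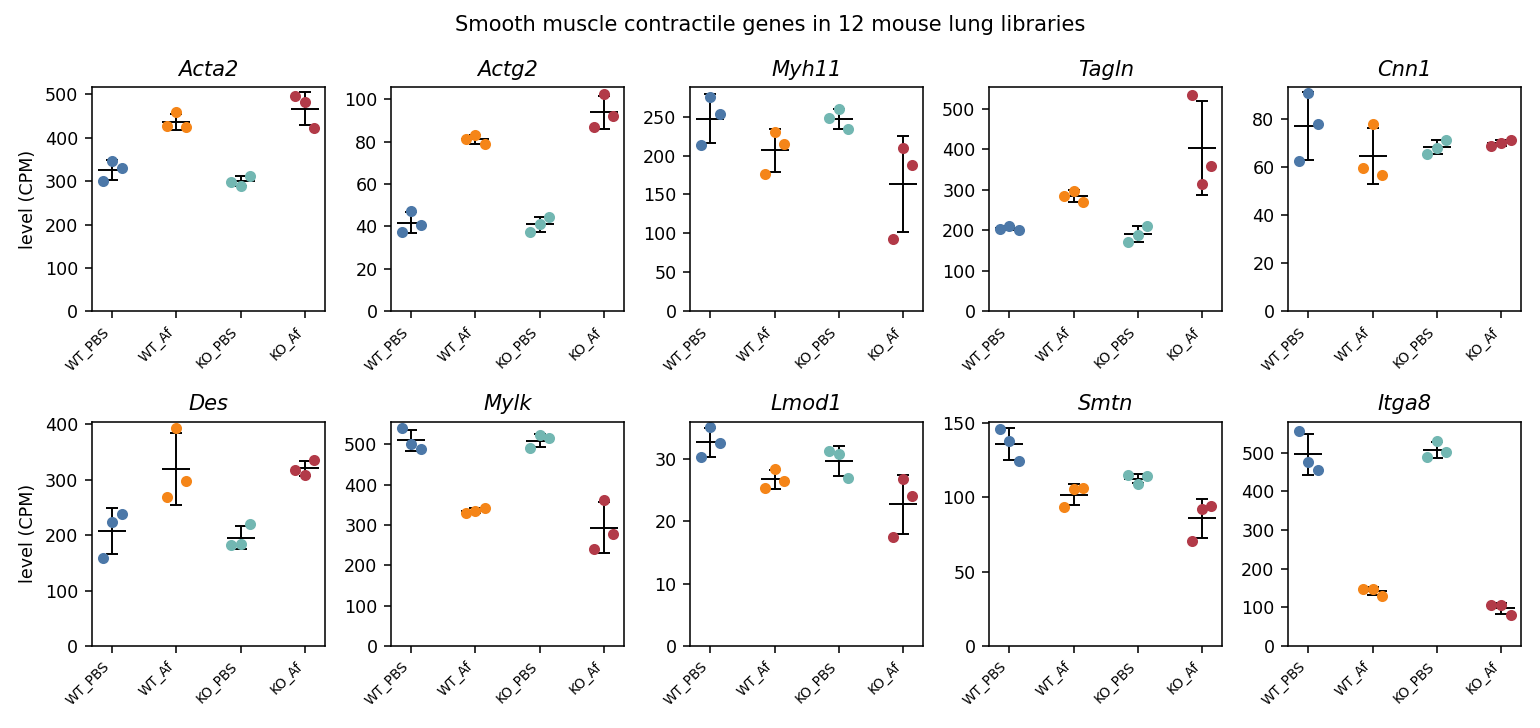
Level of each contractile gene in CPM (linear axis from 0) in the 3 libraries of each group, as points in order of library number, with the mean (long dash) and SD (whiskers). Acta2, Actg2, Tagln and Des are higher in the Af libraries of both genotypes, Mylk, Smtn and Itga8 are lower, and KO_Af 12, the first point of its group, is highest for Tagln and lowest for Myh11, Mylk, Lmod1 and Smtn.

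Among the actins, Acta2 encodes alpha smooth muscle actin, the main actin of vascular and airway muscle and a marker of myofibroblasts (ENSMUSG00000035783.8, chromosome 19, 34241090 to 34255590, minus strand, GRCm38). In order of library number here and below, its level was 300.5, 347 and 330.4 CPM in WT_PBS and 428, 459 and 426 CPM in WT_Af. In KO it was 298, 289 and 313 CPM under PBS and 496, 482 and 424 CPM under Af. Every Af library was above every PBS library of either genotype. Acta2 rose 1.34-fold in WT (log2 0.42 ± 0.09 SE, limma adjusted p = 0.00211) and 1.55-fold in KO (log2 0.64 ± 0.09, adjusted p = 0.000107). Actg2, the gamma actin best known from gut muscle (ENSMUSG00000059430.14, chromosome 6, 83512905 to 83536265, minus strand), was much lower in counts, at 37.5, 47.1 and 40.8 CPM in WT_PBS and 37.2, 41.3 and 44.4 in KO_PBS. Under Af it reached 81.0, 83.1 and 78.8 CPM in WT and 86.9, 102 and 92.2 in KO. The groups by exposure were widely separated, the highest PBS library lying at 47.1 CPM and the lowest Af library at 78.8 CPM. Actg2 rose 1.93-fold in WT (log2 0.95 ± 0.10, adjusted p = 1.76e-05) and 2.27-fold in KO (log2 1.19 ± 0.10, adjusted p = 2.50e-06). The ratio of Actg2 to Acta2 reads within a library was 0.128 ± 0.00661 (SD, n = 3) in WT_PBS and 0.185 ± 0.00417 in WT_Af, and 0.137 ± 0.010 and 0.202 ± 0.0233 in KO_PBS and KO_Af. Of these ratios every Af library was above every PBS library of its genotype.

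The proteins that bind along actin did not move as one. Tagln encodes transgelin, an early and abundant smooth muscle protein that bundles actin (ENSMUSG00000032085.5, chromosome 9, 45929619 to 45936058, minus strand). It stood at 202, 210.3 and 202 CPM in WT_PBS and at 284, 298 and 269 CPM in WT_Af. The KO libraries gave 172, 189 and 211 CPM under PBS and 535, 314 and 359 CPM under Af. Af libraries lay above PBS libraries in each genotype, and KO_Af 12 was far above the other two of its group. Tagln rose 1.38-fold in WT (log2 0.47 ± 0.16, adjusted p = 0.0274) and 2.06-fold in KO (log2 1.04 ± 0.16, adjusted p = 0.000189). Without KO_Af 12 the KO difference was log2 0.82 (adjusted p = 3.54e-05). The WT call was lost when any of 5 of the 6 WT libraries was left out (WT_PBS 15, 16 or 17, WT_Af 18 or 19), with log2 values of 0.43 to 0.49 and adjusted p-values of 0.0551 to 0.0807. Tagln shares 108 exonic bases with Pcsk7 on the other strand, and it is not known here if reads were counted by strand. Pcsk7 reached at most 50.4 CPM in any library. The antisense transcript Gm48529, whose level is not known here, lies over 1241 of the 1988 exonic bases of Tagln.

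Cnn1 encodes calponin, which holds back the myosin motor and marks mature smooth muscle (ENSMUSG00000001349.5, chromosome 9, 22099216 to 22109630, plus strand). Its libraries gave 62.8, 91.1 and 77.9 CPM in WT_PBS and 59.5, 77.9 and 56.6 CPM in WT_Af, and 65.7, 68.0 and 71.4 CPM in KO_PBS and 69.0, 70.2 and 71.3 CPM in KO_Af. The Af and PBS libraries overlapped in both genotypes, and the WT libraries were spread more widely than the KO libraries. The log2 difference was -0.25 (95% interval -0.55 to 0.05, adjusted p = 0.142) in WT and 0.04 (-0.26 to 0.34, adjusted p = 0.821) in KO, so that Cnn1 was the one gene of the 10 called in neither. Leaving out WT_PBS 15 or WT_Af 19 made the WT difference -0.39 with adjusted p-values of 0.0273 and 0.0310. The ratio of Tagln to Cnn1 reads went from 2.71 ± 0.470 (SD, n = 3) in WT_PBS to 4.45 ± 0.540 in WT_Af. In KO it went from 2.79 ± 0.168 under PBS to 5.75 ± 1.75 under Af. KO_Af 12 was at 7.75, and KO_Af 13 and 14 at 4.48 and 5.03. Exposures did not overlap in this ratio in either genotype.

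The kinase gene was called lower in both genotypes and the motor gene in KO. Myh11 encodes smooth muscle myosin heavy chain, the most specific of these markers for smooth muscle itself (ENSMUSG00000018830.8, chromosome 16, 14194535 to 14291372, minus strand). Its WT libraries were at 214, 275 and 254 CPM under PBS and 176, 230.0 and 214 CPM under Af, which overlap. The KO libraries were at 248, 259.5 and 234 CPM under PBS and 93.2, 209 and 188 CPM under Af, with KO_Af 12 at less than any other library of the study. The WT difference was log2 -0.26 (95% interval -0.78 to 0.27, adjusted p = 0.390). In KO Myh11 fell to 0.626 of its PBS level (log2 -0.68 ± 0.24, adjusted p = 0.0307). That call rested on KO_Af 12 among others: without it the log2 difference was -0.32 (adjusted p = 0.0520), and the call was also lost without KO_PBS 9, 10 or 11 (log2 -0.64 to -0.72, adjusted p = 0.0535 to 0.0812). The ratio of Acta2 to Myh11 reads was 1.26 to 1.41 in WT_PBS and 1.99 to 2.42 in WT_Af. In KO_PBS it was 1.11 to 1.34. Under Af it was 5.33 in KO_Af 12, and 2.30 and 2.25 in KO_Af 13 and 14. Acta2 reads were thus higher relative to Myh11 reads in each Af library than in any PBS library. The longest transcript is 2.04 kb for Acta2 and 6.55 kb for Myh11. Like the other ratios given here, this ratio was not corrected for the trend with transcript length described below.

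Mylk, on chromosome 16 (ENSMUSG00000022836.10, 34745210 to 35002420, plus strand), makes smooth muscle myosin light chain kinase and, from other start sites, a long form that endothelium and other cells use. Reads per gene do not separate these forms. WT libraries held 540.3, 500.5 and 489 CPM under PBS and 330.0, 334 and 342 CPM under Af. KO libraries held 490.5, 523 and 515 CPM and 239.7, 363 and 277 CPM. Every Af library was below every PBS library, and the spread was widest in KO_Af. Mylk fell to 0.658 of its PBS level in WT (log2 -0.60 ± 0.13, adjusted p = 0.00202) and to 0.568 in KO (log2 -0.82 ± 0.13, adjusted p = 0.000209). The ratio of Acta2 to Mylk reads was 0.642 ± 0.0749 (SD, n = 3) in WT_PBS and 1.3 ± 0.0658 in WT_Af. In KO it was 0.589 ± 0.0315 under PBS and 1.64 ± 0.385 under Af. KO_Af 12 was at 2.07, and KO_Af 13 and 14 at 1.33 and 1.53. The longest transcript of Mylk is 7.82 kb, and this ratio was not corrected for the trend with length either.

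Desmin rose in both genotypes and smoothelin fell in both. Des encodes desmin, the intermediate filament of smooth, cardiac and skeletal muscle (ENSMUSG00000026208.9, chromosome 1, 75360329 to 75368579, plus strand). WT_PBS gave 159.5, 223 and 238 CPM and WT_Af 269, 393 and 298 CPM, while KO_PBS gave 182, 184 and 219.7 CPM and KO_Af 317, 308 and 336 CPM. All Af libraries were above all PBS libraries, with the widest spread in the WT groups. Des rose 1.55-fold in WT (log2 0.63 ± 0.16, adjusted p = 0.00753) and 1.64-fold in KO (log2 0.72 ± 0.16, adjusted p = 0.00293). Without WT_PBS 17 and KO_Af 12, the libraries with skeletal muscle RNA, the values were log2 0.74 (adjusted p = 0.00611) and 0.72 (adjusted p = 0.00625). Whole lung also holds cardiac muscle RNA, from the muscle sleeve of the pulmonary veins. The summed level of 12 cardiac genes was 1205 to 2126 CPM in WT_PBS and 191 to 722 CPM in WT_Af. In KO it was 1305 to 1865 CPM under PBS and 183 to 645 CPM under Af. The share of Des reads that came from cardiac or skeletal muscle was not tested.

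Smtn encodes smoothelin, an actin-associated protein of contractile smooth muscle (ENSMUSG00000020439.17, chromosome 11, 3517523 to 3540612, minus strand). It was at 146, 138 and 124 CPM in WT_PBS and 93.6, 106 and 106 CPM in WT_Af. In KO it was at 114, 109 and 114 CPM under PBS and 70.6, 92.2 and 94.2 CPM under Af. Within each genotype the Af libraries were the lower ones, without overlap. Smtn fell to 0.749 of its PBS level in WT (log2 -0.42 ± 0.11, adjusted p = 0.00792) and to 0.757 in KO (log2 -0.40 ± 0.11, adjusted p = 0.00843); without KO_Af 12 the KO value was log2 -0.27 (adjusted p = 0.0133). Lmod1, whose protein starts new actin filaments in smooth muscle, had the fewest reads of the 10 (ENSMUSG00000048096.7, chromosome 1, 135324807 to 135368065, plus strand). It gave 30.3, 35.0 and 32.5 CPM in WT_PBS, 25.3, 28.3 and 26.5 CPM in WT_Af, 31.2, 30.7 and 26.9 CPM in KO_PBS and 17.5, 26.7 and 23.9 CPM in KO_Af. Exposures did not overlap in either genotype, but the gaps were small: the lowest WT_PBS library was at 30.3 CPM and the highest WT_Af library at 28.3 CPM, and in KO these were 26.9 and 26.7 CPM. Lmod1 fell in KO (log2 -0.40 ± 0.14, adjusted p = 0.0263) and was at log2 -0.28 in WT (95% interval -0.58 to 0.02, adjusted p = 0.102). The KO call was lost without KO_Af 12 (log2 -0.22, adjusted p = 0.0657) and without KO_PBS 9 or 10 (log2 -0.36 and -0.37, adjusted p = 0.0849 and 0.0769).

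Itga8 had the largest difference of the 10 genes in both genotypes. Integrin alpha 8 pairs with integrin beta 1 to bind nephronectin, fibronectin and tenascin, and in lung it is made by alveolar fibroblasts and pericytes as well as by smooth muscle (ENSMUSG00000026768.10, chromosome 2, 12106632 to 12301922, minus strand). Its level was 556, 477 and 456 CPM in WT_PBS and 488, 529.9 and 500.4 CPM in KO_PBS. Under Af it was 148, 147 and 130.0 CPM in WT and 107, 105 and 80.0 CPM in KO. The lowest PBS library was at 456 CPM and the highest Af library at 148 CPM, and all KO_Af libraries were below all WT_Af libraries. Itga8 fell to 0.287 of its PBS level in WT (log2 -1.80 ± 0.12, adjusted p = 9.40e-07) and to 0.191 in KO (log2 -2.39 ± 0.12, adjusted p = 1.38e-07). An antisense transcript, E030013I19Rik, shares 372 exonic bases with Itga8 and went the same way, from 10.2 to 2.90 CPM on average in WT and from 11.2 to 1.87 CPM in KO; without strand its reads and those of Itga8 cannot be told apart. Transcripts on the other strand are also annotated over 1241 exonic bases of Tagln (Gm48529), 714 of Smtn (Gm11946, at most 0.52 CPM) and 548 of Mylk (E130310I04Rik), with the same limit. The levels of Gm48529 and E130310I04Rik are not known here. The ratio of Actg2 to Itga8 reads was 0.0676 to 0.0988 in WT_PBS and 0.0762 to 0.0886 in KO_PBS. Under Af it was 0.546 to 0.606 in WT and 0.813 to 1.15 in KO. The longest transcript is 1.33 kb for Actg2 and 5.81 kb for Itga8, and the ratio was not corrected for length.

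**Figure D2:**
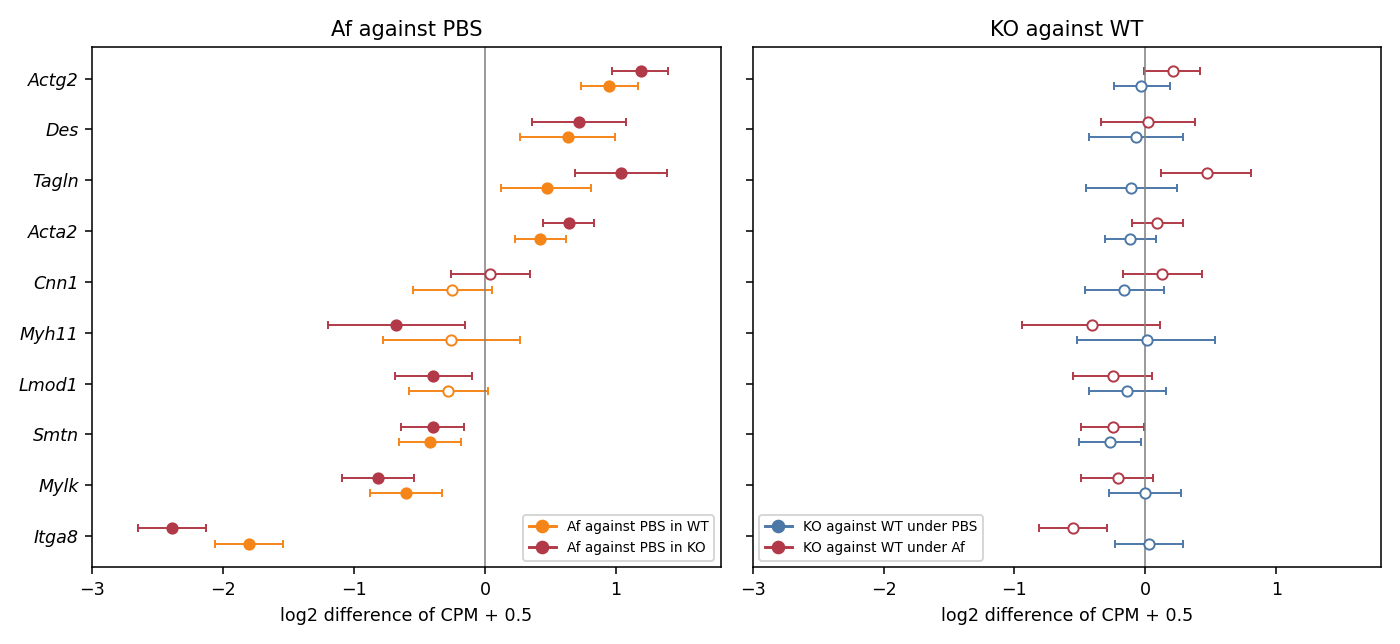
Log2 difference of CPM + 0.5 for each gene (points) with its 95% interval (bars), Af against PBS in each genotype (left) and KO against WT under each exposure (right). Filled points passed an adjusted p under 0.05: 7 in WT and 9 in KO on the left, and 0 on the right, where Itga8 under Af lies at -0.55 and Tagln at 0.47.

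Levels of different genes can be compared only per length. Per kb of annotated exon, WT_PBS levels ran from 148 ± 10.8 CPM per kb (SD, n = 3) for Acta2 and 103 ± 2.40 for Tagln, through Itga8 at 67.3 ± 7.15, Des at 55.1 ± 11.2 and Mylk at 45.3 ± 2.39, to 32.5 ± 4.09 for Myh11, 31.0 ± 2.46 for Smtn, 28.2 ± 5.17 for Cnn1 and 26.8 ± 3.11 for Actg2, with Lmod1 lowest at 8.26 ± 0.603. The neighbours Itga8 and Des, Des and Mylk, and those from Myh11 to Actg2 were within their spread of each other. In WT_Af the order was Acta2 (199 ± 8.39), Tagln (143 ± 7.27), Des (85.2 ± 17.2), Actg2 (52.0 ± 1.37), Mylk (29.8 ± 0.560), Myh11 (27.2 ± 3.62), Cnn1 (23.6 ± 4.21), Smtn (23.2 ± 1.58), Itga8 (19.2 ± 1.40) and Lmod1 (6.77 ± 0.384), where the neighbours Mylk and Myh11, Myh11 and Cnn1, and Cnn1 and Smtn were within their spread of each other. Itga8 thus went from the third place to the ninth, and Actg2 from the ninth to the fourth. KO_PBS had Itga8 in the third place too, at 68.7 ± 2.89 CPM per kb, and KO_Af in the ninth, at 13.2 ± 2.03. The summed level of the 10 genes was 2245 to 2344 CPM in WT_PBS and 1895 to 2155 CPM in WT_Af, and 2127 to 2250 CPM in KO_PBS and 1945 to 2072 CPM in KO_Af.

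Direction and transcript length went together among the 10 genes, as they did among all genes. The 4 genes that rose have longest transcripts of 1.33 to 3.03 kb, Cnn1 of 2.38 kb, and the 5 that fell in KO of 3.39 to 7.82 kb. All tested genes of known length were put into 5 groups of nearly equal size by their longest transcript. The median log2 difference between Af and PBS in WT was 0.31 in the shortest group (up to 1754 bases), then 0.10, -0.01 and -0.09, and -0.27 in the longest (5098 bases or more). In KO the medians were 0.38, 0.11, -0.01, -0.12 and -0.33. KO_Af 12 departed from the mean of its group in the same manner, with a longest-minus-shortest difference of -0.48 on the log2 scale. It was 0.32 in KO_Af 13 and 0.17 in KO_Af 14, and between -0.13 and 0.10 in the libraries of the other groups. The test was therefore repeated with the trend of length removed from every library, a choice made after seeing the data.

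With the length trend removed, the 4 genes that rose and the 3 that fell in WT were called again. Actg2 was at log2 0.72 (adjusted p = 0.000760), Acta2 at 0.32 (adjusted p = 0.00471), Tagln at 0.30 (adjusted p = 0.0441) and Des at 0.61 (adjusted p = 0.00839). Itga8 was at -1.58 (adjusted p = 5.60e-06), Smtn at -0.40 (adjusted p = 0.00546) and Mylk at -0.29 (adjusted p = 0.0141), less than 0.5 of its log2 value before. Myh11 in WT went from -0.26 to 0.00. In KO 4 genes were higher and 4 lower: Tagln was at 0.85, Mylk at -0.45 and Itga8 at -2.12, and Myh11 was no longer called at -0.37 (adjusted p = 0.103). What makes the differences follow length was not tested.

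**Figure D3:**
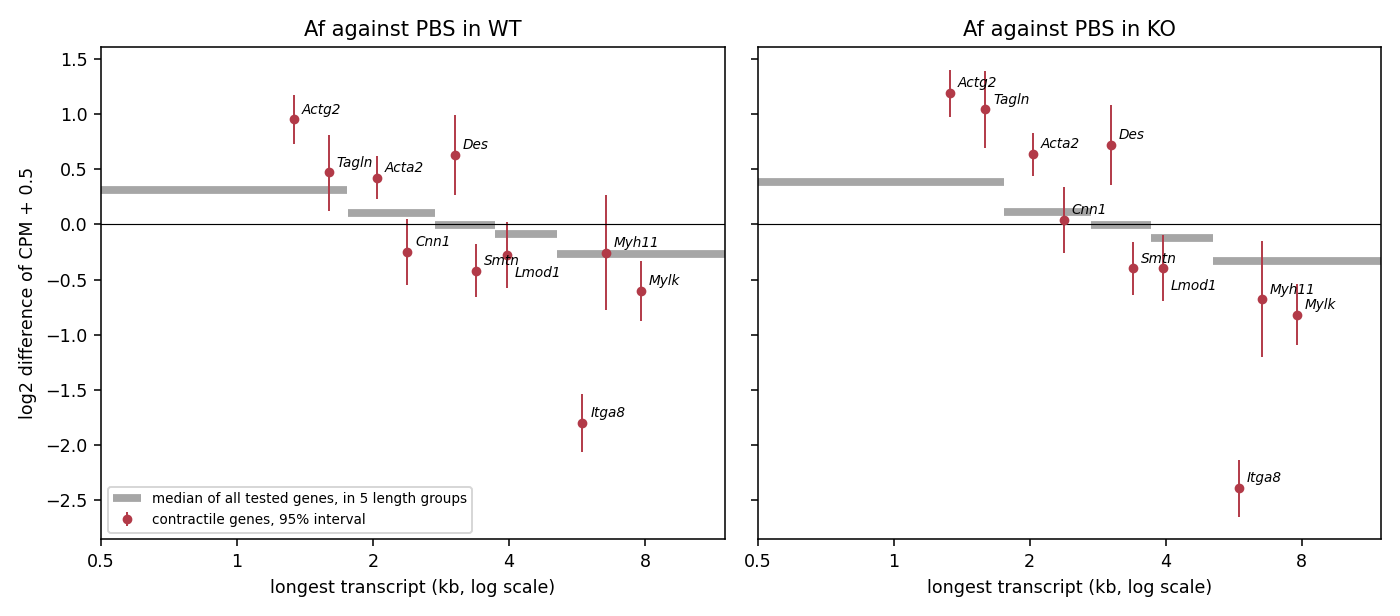
Log2 difference of CPM + 0.5 between Af and PBS for each contractile gene (red points, 95% interval as bars) by the length of its longest annotated transcript in kb (log axis, drawn from 0.5 to 12 kb), in WT (left) and KO (right). Grey bars are the medians of all tested genes in 5 length groups, which run from 0.31 to -0.27 in WT and 0.38 to -0.33 in KO; Actg2, Des and Itga8 lie well away from them.

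Between genotypes none of the 10 genes was called. Under PBS 0 of 10 passed (limma adjusted p of 0.225 or more), against 3.55% of all tested genes. At an unadjusted p under 0.05 there was 1, Smtn, whose WT_PBS libraries (124 to 146 CPM) were all above the KO_PBS libraries (109 to 115 CPM), at log2 -0.27 (95% interval -0.51 to -0.03, adjusted p = 0.225). It was the 1 gene of 10 whose groups did not overlap, where 33.1% of all genes did not. The intervals of the other 9 included 0, the widest being that of Myh11 (-0.52 to 0.53), for which a difference of that size was not detectable with 3 libraries a group. edgeR and DESeq2 on the recovered reads called 0 of 10 as well. With array weights, and without WT_PBS 17 and KO_Af 12, Smtn was called (log2 -0.26, adjusted p = 0.0129, and log2 -0.33, adjusted p = 0.0334).

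Under Af again 0 of 10 passed, against 0.0868% of all genes, and 3 did at an unadjusted p under 0.05. Itga8 was at log2 -0.55 in KO against WT (95% interval -0.81 to -0.29, adjusted p = 0.165), Tagln at 0.47 (0.12 to 0.81, adjusted p = 0.366) and Smtn at -0.25 (-0.49 to -0.01, adjusted p = 0.442). The KO_Af and WT_Af libraries did not overlap for 3 of 10 genes, Actg2, Tagln and Itga8, where 13.8% of all genes did not. Without KO_Af 12 the Tagln value was 0.24 (adjusted p = 0.400), the Myh11 value went from -0.41 to -0.05, and the Itga8 value was -0.63 (adjusted p = 0.115). edgeR's quasi-likelihood test called 0 of the 10, with log2 -0.54 and an adjusted p of 0.177 for Itga8, and DESeq2 called 1, Itga8, at the same value with an adjusted p of 0.00366. With array weights Tagln (log2 0.30) and Itga8 (-0.78) were called (adjusted p = 0.0342 and 0.000824). The median of all genes followed length here too, at log2 0.15 in the shortest group and -0.12 in the longest. With the length trend removed the limma values were -0.46 for Itga8 (adjusted p = 0.313), 0.37 for Tagln (adjusted p = 0.305) and -0.24 for Smtn (adjusted p = 0.419).

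Averaged over both exposures 0 of 10 genes passed, against 2.16% of all genes, with 2 at an unadjusted p under 0.05: Smtn and Itga8, each at log2 -0.26 (adjusted p = 0.101 and 0.125). edgeR called 0 and DESeq2 both (adjusted p = 0.0285 for Smtn and 0.0462 for Itga8). The interaction asks whether Af changed a gene differently in KO than in WT. It was called for 0 of the 10 and for 0.00620% of all genes, which is 1 gene. At an unadjusted p under 0.05 there were 2, Itga8 (log2 -0.59, 95% interval -0.95 to -0.22, adjusted p = 0.205) and Tagln (log2 0.57, 0.08 to 1.06, adjusted p = 0.368). Without KO_Af 12 these were -0.66 (adjusted p = 0.117) and 0.35 (adjusted p = 0.243). edgeR called 0, with an adjusted p of 0.212 for Itga8, and DESeq2 called Itga8 (log2 -0.57, adjusted p = 0.0484). The call of Myh11 and Lmod1 in KO and not in WT therefore does not show a difference between the genotypes: their interactions were -0.42 (adjusted p = 0.742) and -0.11 (adjusted p = 0.898).

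Other genes of the contractile apparatus were taken by list, beside 26.2% of all tested genes higher and 25.6% lower with Af in WT, and 28.7% and 29.2% in KO. Of 14 genes of the contraction machinery, 6 were higher and 3 lower with Af in WT, and 6 and 4 in KO, with median log2 differences of 0.01 and 0.15. Caldesmon (Cald1), which binds actin and myosin, rose by log2 0.73 ± 0.11 in WT (adjusted p = 0.000208) and 1.01 in KO. The cytoplasmic actin Actb rose by 0.50 ± 0.13 (adjusted p = 0.00690) and 0.53, and it is an actin of most cells of the lung. The nonmuscle myosin heavy chain gene Myh10 fell, at log2 -1.33 ± 0.09 in WT (adjusted p = 1.26e-06) and -1.69 in KO, from 367 ± 9.00 to 146 ± 3.61 CPM (SD, n = 3) in WT. Calponin 3 (Cnn3) fell less, at -0.36 ± 0.07 (adjusted p = 0.00122) and -0.23. The regulatory light chain gene Myl9, the substrate of the kinase and chosen for mention after its values were seen, was at 137 ± 4.94 CPM in WT_PBS and 128 ± 9.56 CPM in WT_Af, and was called in neither genotype (adjusted p = 0.436 and 0.211).

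Of 14 genes listed for the control of the kinases and the phosphatase that act on the light chain, 1 was higher and 5 lower in WT, and 2 and 7 in KO. The cGMP-dependent kinase gene Prkg1, which relaxes smooth muscle, fell (log2 -1.16 ± 0.15, adjusted p = 9.35e-05, in WT and -1.47 in KO). Ppp1r12b, a targeting subunit of myosin phosphatase, was at -0.66 ± 0.12 (adjusted p = 0.000714) and -0.69. Arhgef12, a guanine nucleotide exchange factor, was at -0.86 ± 0.14 (adjusted p = 0.000421) and -1.19, and Cdc42ep3, an effector of Cdc42, at -0.76 ± 0.10 (adjusted p = 7.04e-05) and -0.76, all of them lower.

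Of 22 genes of adhesion and dense bodies, the anchor points of actin in smooth muscle, 5 were higher and 10 lower in WT, and 7 and 9 in KO. Tensin 1 (Tns1), which joins integrins to actin, fell (log2 -1.48 ± 0.16, adjusted p = 2.25e-05, in WT and -1.3 in KO). Synemin (Synm), an intermediate filament protein that assembles with desmin, was at -1.35 ± 0.18 (adjusted p = 9.83e-05) and -1.98, opposite in direction to Des. Parva, an integrin-linked adaptor, was at -0.46 ± 0.08 (adjusted p = 0.000508) and -0.33. Pdlim7, a cytoskeletal scaffold, rose by 0.74 ± 0.14 (adjusted p = 0.00116) and 1.09.

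Of 20 genes of transcriptional control, 1 was higher and 7 lower in WT, and 0 and 9 in KO. The Notch target genes Hey1 (log2 -1.08 ± 0.10, adjusted p = 8.56e-06) and Hey2 (-0.84 ± 0.16, adjusted p = 0.00107) fell in WT, as did Foxf1, a factor of lung mesenchyme (-0.79 ± 0.16, adjusted p = 0.00164); in KO they were at -1.58, -1.10 and -0.97. Tgfb1, a growth factor that raises smooth muscle genes in culture, rose in WT (0.53 ± 0.11, adjusted p = 0.00164) and was at 0.20 in KO (adjusted p = 0.126). Srf and Myocd, named after their values were seen, were called in neither genotype. Srf was at 75.9 ± 7.45 CPM in WT_PBS and 83.2 ± 2.82 CPM in WT_Af (adjusted p = 0.283), and Myocd at 4.68 ± 1.27 and 4.44 ± 0.365 CPM (adjusted p = 0.901). Hey1 was the 1 gene over the 5 lists called between genotypes on average (log2 -0.51 ± 0.07, limma adjusted p = 0.00492). It was at 105 to 118 CPM in WT_PBS against 91.9 to 94.0 in KO_PBS, and at 44.7 to 57.4 CPM in WT_Af against 28.8 to 33.7 in KO_Af. Of the 20 genes 1 was called lower in KO than in WT under Af, and 0 were called under PBS. Of all tested genes 0.0868% were called under Af and 3.55% under PBS.

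Of 13 genes of channels and calcium coupling, 1 was higher and 9 lower in WT, and 1 and 8 in KO, and the median log2 differences were -0.52 and -0.50. Orai1, the pore of store-operated calcium entry, rose by log2 0.60 ± 0.07 (adjusted p = 2.79e-05) in WT and 0.73 in KO, while Stim1, the sensor that opens it, fell (-0.50 ± 0.07, adjusted p = 0.000100, and -0.50). The calcium pump gene Atp2b4 was at -1.14 ± 0.16 (adjusted p = 0.000176) and -1.15, and the caveolin gene Cav1, which endothelium and alveolar epithelium also express strongly, at -1.09 ± 0.13 (adjusted p = 5.39e-05) and -0.97.

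**Figure D4:**
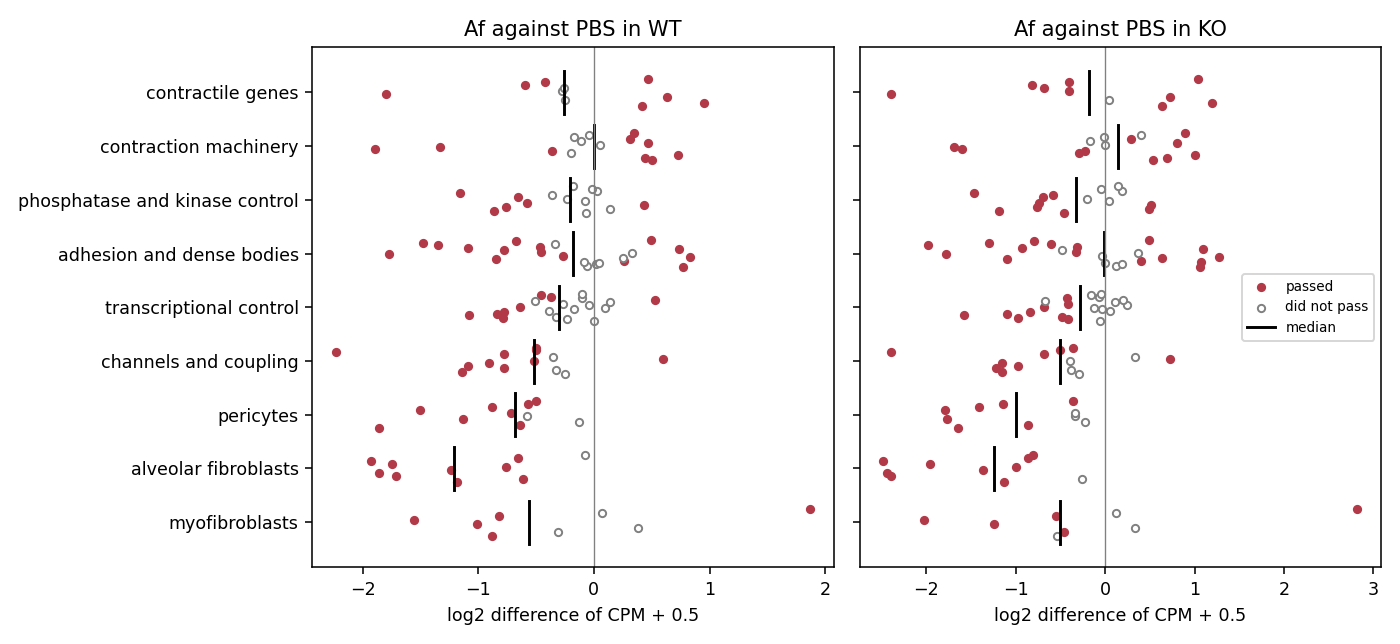
Log2 difference of CPM + 0.5 between Af and PBS for each tested gene (points, red where the adjusted p was under 0.05) of the contractile genes, the 5 pathway lists and 3 lists of markers of other mesenchymal cells, in WT (left) and KO (right). Black bars are medians, which for the contractile genes are -0.25 and -0.18, for pericytes -0.68 and -1.0 and for alveolar fibroblasts -1.21 and -1.24.

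Markers of other cells that share the contractile genes were taken by list too. Their counts, here and in the next paragraph, stand beside the shares of all tested genes. These were 26.2% higher and 25.6% lower with Af in WT, and 28.7% and 29.2% in KO. Of 10 alveolar fibroblast genes 9 fell in each genotype, and their summed level was 5534 to 6112 CPM in WT_PBS and 1962 to 2575 CPM in WT_Af, and 5985 to 6262 and 1672 to 2354 CPM in KO. Among them Npnt, the gene of the integrin alpha 8 ligand nephronectin, was at log2 -1.75 ± 0.18 in WT (adjusted p = 1.45e-05) and -1.96 in KO, and Tcf21, a fibroblast transcription factor, at -0.66 ± 0.17 (adjusted p = 0.00792) and -0.86. Of 10 pericyte genes 8 fell in WT and 7 in KO, with sums of 786 to 888 CPM in WT_PBS, 428 to 495 in WT_Af, 860 to 895 in KO_PBS and 293 to 471 in KO_Af. Of 9 further smooth muscle genes, which share Npnt with the fibroblast list and Actc1 with the cardiac list, 5 fell in each genotype, among them the airway smooth muscle gene Hhip (log2 -1.21 ± 0.16, adjusted p = 0.000107, and -1.57), and 1 rose in KO. Of 8 myofibroblast genes 4 fell and 1 rose in each genotype. The matrix gene Tnc rose (log2 1.87 ± 0.49, adjusted p = 0.00816, and 2.82). Lgr6 (log2 -1.56 in WT and -2.02 in KO), Fgf18 (-1.01 and -1.24) and Pdgfra (-0.82 and -0.55) fell in both. Aspn was called lower in WT alone and Cdh11 in KO alone. The myofibroblast sums overlapped, at 1070 to 1430 CPM in WT_PBS and 1016 to 1138 in WT_Af.

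Of 6 leukocyte genes 4 rose in WT and 2 in KO, and their summed level went from 201 to 317 CPM in WT_PBS to 7797 to 9709 CPM in WT_Af, and from 404 to 417 CPM to 8696 to 13542 CPM in KO. Nearly all of the summed level under Af was Retnla, a secreted protein of alternatively activated macrophages that airway epithelium also makes, at 76.1 ± 15.0 CPM in WT_PBS and 8178 ± 987 CPM in WT_Af (SD, n = 3), and at 81.0 ± 17.5 and 10097 ± 2712 CPM in KO. Ptprc, which encodes the common leukocyte antigen CD45, was at 131 ± 30.3 and 229 ± 24.98 CPM in WT and at 229 ± 25.7 and 203 ± 30.5 CPM in KO, where it was not called (adjusted p = 0.367). Of 6 endothelial genes 4 fell in WT and 5 in KO, and their sums went from 3122 to 3722 CPM in WT_PBS to 2477 to 3055 CPM in WT_Af, and from 4219 to 4378 CPM to 1949.9 to 2972 CPM in KO, with no overlap between Af and PBS. Vwf, von Willebrand factor, was at 337 ± 64.5 and 532 ± 78.9 CPM in WT and was called in neither genotype (adjusted p = 0.0530 and 0.194). Adventitial fibroblast genes fell for 3 and 2 of 8, and cardiac genes for 5 and 8 of the 11 of 12 tested. Of the skeletal muscle genes 6 of 10 and of the squamous genes 3 of 8 could be tested; none of the former was called, and of the latter 1 rose in KO. No gene of these lists was at 0 in all 12 libraries. The part that the makeup of the tissue has in the differences of the 10 genes was not tested.

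Over the 12 within-group deviations of log2 levels from the group means, which all share the depth and makeup of their library, Myh11 and Lmod1 had a Pearson r of 0.96, Des and Cnn1 of 0.86 and Myh11 and Smtn of 0.77, while Myh11 and Tagln had an r of -0.83 and Tagln and Lmod1 of -0.87. Acta2 and Actg2 had an r of 0.50. Several of these values rest on KO_Af 12. Without it, a choice made after seeing the data, the r over 11 libraries was 0.84 for Myh11 and Lmod1 and 0.86 for Des and Cnn1, but 0.09 for Myh11 and Smtn, -0.11 for Myh11 and Tagln and -0.46 for Tagln and Lmod1. For Acta2 and Actg2 it was 0.80. The genes with the most similar levels over all 12 libraries were mostly outside the contractile apparatus, and these similarities hold the common effect of Af. For Itga8 they were Sdc2, Adamts10 (r = 0.995 each) and Angptl2 (0.993), for Mylk Zfp174 (0.990), Pcdhgc3 and Notch3 (0.989 each), and for Tagln Psmc6 (0.989), Nip7 (0.985) and Mrpl28 (0.983). For Actg2 Serbp1 came first (0.988), for Lmod1 Bptf (0.975), for Smtn Pik3ca (0.973) and for Myh11 Crtc3 (0.972). Has1, a hyaluronan synthase, came first for both Acta2 (0.975) and Des (0.963). For Cnn1 the first was Shank1, at only 0.788. Over the deviations from the group means, the first for Cnn1 was Aldh5a1, with an r of 0.955.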

How the data were processed

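Per the labels' protocols, a Qiagen RNEasy kit and then Illumina's TruSeq mRNA kit were used on lung. The authors used cutadapt 1.18, STAR 2.7.6a and RSEM 1.3.0 with builds GRCm38 and GRCh38, per the submitters' processing notes. The table the authors deposited holds 1 signal for each gene in each library: CPM with TMM scaling, as the table's name says, that is reads relative to library size with a correction factor per library. All values were whole multiples of 1 read (100% at a tolerance of 0.01), so reads were recovered by division. Because depth is thus known, the unit was treated as a scaled count and not as plain CPM; the planned tests were kept.

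Tested were the 16126 genes that reached 1 CPM in 3 or more libraries, all 10 contractile genes among them, as log2(CPM + 0.5), which understates changes of low genes, with limma 3.58.1 (R 4.3.3, variance trend). All 4 groups shared a fit with 8 residual degrees of freedom, and adjusted p-values are Benjamini-Hochberg over all tested genes. The script was tested on simulated data holding 200 changed genes. Alternatives were other pseudocounts (0.1 and 1), filters (none and 5 CPM), median rescaling, array weights, edgeR 4.0.16, DESeq2 1.42.0, the compared groups alone, and leaving out libraries. Removal of the length trend was added after seeing the data. Lengths and coordinates are from GENCODE M21, which matched 49326 of 49585 identifiers (99.5%); Mrtfa, Mrtfb and Gucy1a1 were found by older symbols. Averaged over genes, the squared differences between replicate libraries were at least 10.6 times those of counting noise in each pair. Promoters are from RefSeq, actins were aligned with Biopython 1.88, and figures were drawn with matplotlib 3.10.9.

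The members and lists were chosen with earlier results of these data known. Named were all 10 genes, and from each pathway list up to 4 called genes with the smallest p for Af in WT. For the averaged genotype difference up to 2 called genes per list were taken, which gave Hey1 alone. In each other list none was called, and the 1 gene with the smallest p was taken. These were Myl6 (log2 0.16), Ppp1r12b (-0.25), Synpo2 (-0.27) and Atp2b4 (-0.33), at limma adjusted p-values of 0.133 or more. The 3 most similar genes by Pearson r were sought for each gene, leaving out the 10 genes themselves and Gm and Rik names. Over the 12 libraries all 3 are named for Itga8, Mylk and Tagln, and the first for the other genes. Over the deviations from group means only the first for Cnn1 is named. Other genes named, markers included, were chosen after their values were seen.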

Additional observations from a re-analysis of the deposited data

How the results depend on the processing

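No paired analysis was possible because each library number occurs once, so the groups share no number. Over the 17 other settings (22 for the averaged difference and the interaction) no called value changed sign. For Af against PBS, the 10 genes in WT kept their side of the threshold in 159 of 170 recomputed values, and in KO in 157 of 170. In WT 6 to 8 genes were called, and in KO 7 to 9. Without a filter on low values Tagln in WT (adjusted p = 0.0519) and Myh11 in KO (0.0576) lost their calls, and in a fit of KO alone Myh11 (0.0752) and Lmod1 (0.0769) did. Lmod1 in WT was called with array weights (adjusted p = 0.00552), in a fit of WT alone (0.0217) and without WT_PBS 17 and KO_Af 12 (0.0374). For KO against WT under PBS 1 gene was called with array weights and 1 without WT_PBS 17 and KO_Af 12. Under Af 2 were called with array weights (Tagln log2 0.30, Itga8 -0.78) and 1 by DESeq2. Averaged over exposures 3 were called with array weights (Lmod1, Smtn, Itga8) and 2 by DESeq2. For the interaction 2 were called with array weights (Tagln 0.47, Itga8 -0.85) and 1 by DESeq2. Leaving out 1 library at a time left the genotype and interaction counts at 0. The cause of these differences was not tested. Median rescaling moved the median of all genes by at most 0.05. The lowest count of the 10 genes was 444 reads in a library; counting error was not compared with the spread gene by gene.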
